A study of Homo sapiens with 11 samples.

Results

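Mitochondrial complexes II to V work in the respiratory system beside complex I. The genes described here lie in the nuclear genome, and most of them encode subunits of complexes II to V. Members were the protein-coding genes of the count table whose GENCODE 29 symbol begins with UQCR, ATP5 or COX4 to COX8, with SDHA, SDHB, SDHC and SDHD, CYC1 and CYCS. The rule used names and no measured value, and it found 53 of 58721 genes. The 11 RNA libraries all come from A375, a human melanoma cell line long in laboratory use and labelled wild type. That label is repeated as given, and the sequence of no gene was examined in these cells. They are 1 untreated parental library, 5 persister libraries from cells kept in 2 nM trametinib, an inhibitor of the kinases MEK1 and MEK2, for 8 weeks, and 5 withdrawn libraries from cells left without drug for 4 weeks. The name of each withdrawn library carries that of a persister culture and its number. The labels do not say whether the cultures were set up separately, so p-values measure the spread between these libraries, which may be technical, and the parental group has no spread of its own.

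Complex II (succinate dehydrogenase) takes electrons from succinate in the citric acid cycle, complex III passes them from ubiquinol to cytochrome c, and complex IV (cytochrome c oxidase) passes them from cytochrome c to oxygen. Complexes III and IV pump protons, and complex V (ATP synthase) makes ATP as the protons flow back. The catalytic core of complex IV, cytochrome b of complex III and a pair of membrane subunits of complex V are encoded in the mitochondrial genome, so each of these complexes needs products of both genomes, whereas complex II is wholly nuclear.

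Of the 53 members, 48 had enough counts to be tested. In persister cells 33 of the 48 rose against the parental library and 0 fell (edgeR's quasi-likelihood test over all genes, adjusted p under 0.05), where 16.1% of all 23693 genes tested rose and 15.1% fell. That fit takes its spread from all 11 libraries, and rises of single genes given below are calls of that fit unless another is named. Fitted on the parental and persister libraries alone, 7 of 47 members rose (UQCR10, UQCRB, UQCRQ, COX7C, ATP5MC1, ATP5MG and ATP5PD), beside 5.94% of all genes, and the other 26 of the 33 kept their direction with an adjusted p of 0.0545 to 0.193. The median log2 fold change was 0.89 over the members and 0.09 over all genes tested, and the called rises ran from 1.45-fold to 2.76-fold. All 5 persister libraries lay above the parental library for 42 of the 48 members, against 32.7% of all genes tested. After withdrawal 37 of the 48 fell from the persister level and 0 rose, where 28.0% of all genes fell and 24.5% rose, and the median log2 fold change was -0.55. Every persister library lay above every withdrawn library for 31 members and the reverse held for 0, against 20.3% of all genes in each direction. Between withdrawn and parental cells 0 members rose and 0 fell by the same test, against 0.312% and 0.118% of all genes.

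**Figure D1:**
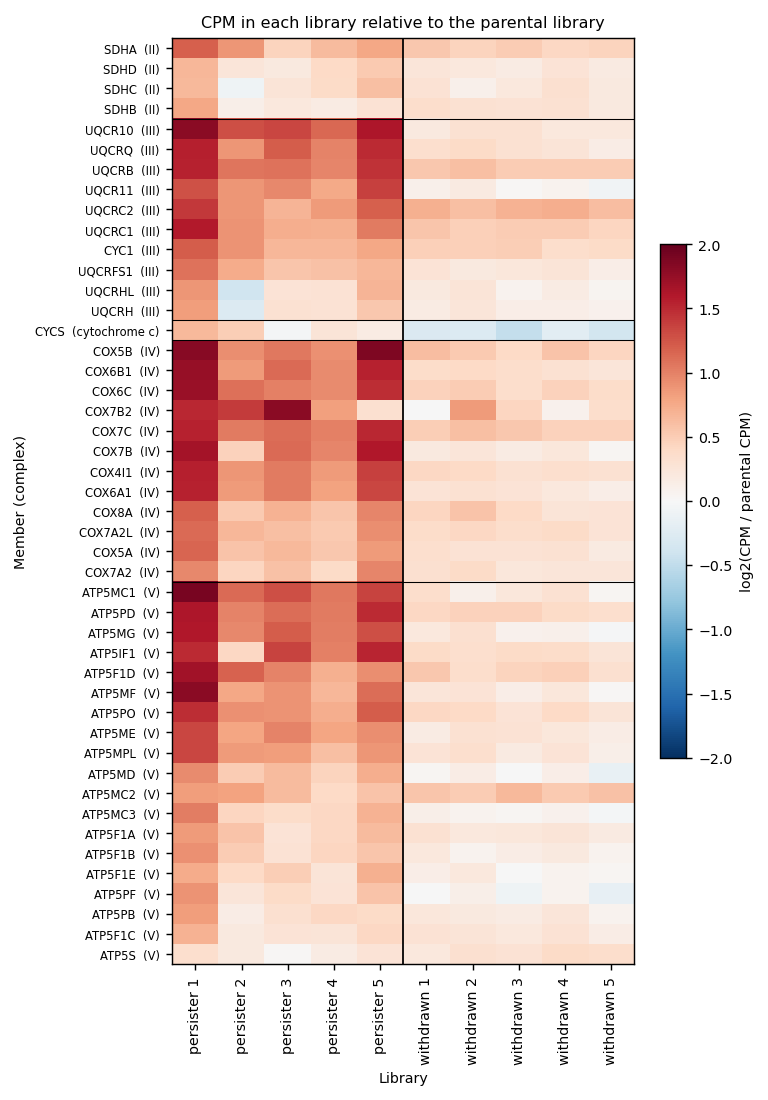
CPM of each tested member with a mean of at least 1 CPM, in each persister and withdrawn library (columns), as log2 of its ratio to the parental library (colour). Rows are grouped by complex and ordered within it by the fold change of persister cells. Complex II is paler than complexes III to V in persister cells, persister library 1 is the darkest column, and CYCS is the row that is below the parental library in all 5 withdrawn libraries.

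The rise was unequal between the complexes. In complex II 1 of 4 tested members rose (median log2 fold change 0.40), in complex III 8 of 10 (1.03), in complex IV 11 of 14 (1.15) and in complex V 13 of 19 (0.66), while CYCS, cytochrome c itself, was not called. The falls after withdrawal covered 1 of 4, 8 of 10, 12 of 14 and 15 of 19 members in the same order, and CYCS also fell. Differences between complexes were not tested, since genes of a complex are not replicates. CPM are counts scaled to a common library total, and so are shares of a library, and in bulk RNA fewer cells of a kind and less RNA per cell cannot be told apart.

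**Figure D2:**
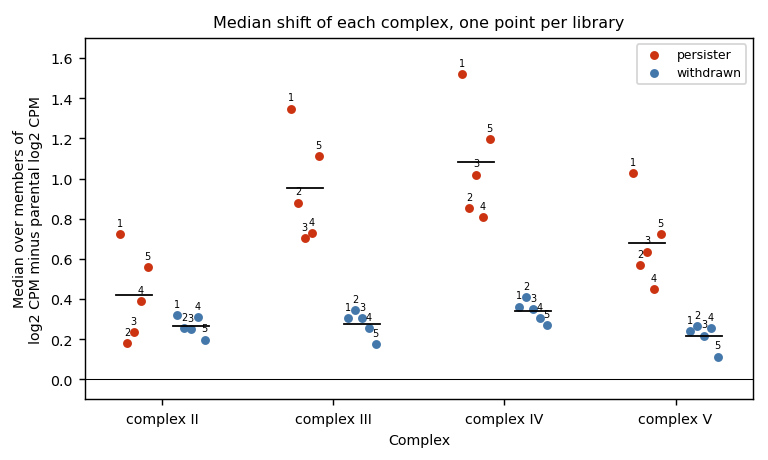
Median over the tested members of each complex of log2 CPM minus the parental library's log2 CPM. Each point is a library with its replicate number, and the black bars are means of 5 libraries. Persister medians are highest in complex IV, at 0.81 to 1.52, except in library 2, where complex III is highest, and lowest in complex II, at 0.18 to 0.72, and withdrawn medians lie between 0.11 and 0.41 in all 4 complexes.

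Because so many members moved together, the bases ahead of their transcription starts were searched on both strands for short motifs of factors known from such genes. RefSeq windows (GRCh38.p14) of 250 bases before to 50 after the start were found for 39 members, 45 windows in all. GCATGCG, part of the NRF1 motif, was in 22.2% of member windows and 4.63% of all windows of protein-coding genes. CCGGAAG, an ETS motif that GABPA also reads, was in 37.8% and 12.8%. AAGATGG, part of the YY1 motif, was in 22.2% and 6.04%, and AAGGTCA, which receptors of the ERR family read, in 15.6% and 3.22%. TGACGTC (CREB) was in 6.67% and 4.09%, the E-box CACGTG in 8.89% and 8.34%, GGGCGG (SP family) in 55.6% and 56.3% and TATAAA, which TBP reads, in 8.89% and 9.47%.

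The windows below are the 150 bases before the start of members with 1 RefSeq start each, 5′ to 3′ on the gene's strand, with each match of these motifs or of its reverse complement in capitals. Capitals run together where matches touch or overlap. The first 4 genes are among the largest rises of complexes III, IV and V, COX7C rose too, and the last 3 were not called in persister cells, so that both kinds can be compared.
UQCR10, chr22:29767219-29767368, plus strand: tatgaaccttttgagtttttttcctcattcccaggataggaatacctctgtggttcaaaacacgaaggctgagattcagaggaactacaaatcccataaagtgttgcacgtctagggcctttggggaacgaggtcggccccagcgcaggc
UQCRQ, chr5:132866492-132866641, plus strand: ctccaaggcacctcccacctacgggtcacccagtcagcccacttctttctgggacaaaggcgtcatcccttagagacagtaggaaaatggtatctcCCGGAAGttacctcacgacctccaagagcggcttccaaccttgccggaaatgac
COX5B, chr2:97645912-97646061, plus strand: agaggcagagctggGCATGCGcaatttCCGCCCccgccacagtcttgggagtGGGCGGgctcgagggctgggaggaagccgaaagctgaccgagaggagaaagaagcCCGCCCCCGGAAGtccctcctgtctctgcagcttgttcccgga
ATP5MC1, chr17:48892637-48892786, plus strand: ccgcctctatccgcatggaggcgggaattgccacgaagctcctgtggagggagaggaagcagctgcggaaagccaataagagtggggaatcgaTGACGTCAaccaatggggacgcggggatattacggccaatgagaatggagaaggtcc
COX7C, chr5:86617791-86617940, plus strand: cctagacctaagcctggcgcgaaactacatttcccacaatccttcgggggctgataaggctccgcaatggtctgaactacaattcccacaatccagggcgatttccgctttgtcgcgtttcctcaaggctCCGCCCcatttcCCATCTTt
UQCRH, chr1:46303548-46303697, plus strand: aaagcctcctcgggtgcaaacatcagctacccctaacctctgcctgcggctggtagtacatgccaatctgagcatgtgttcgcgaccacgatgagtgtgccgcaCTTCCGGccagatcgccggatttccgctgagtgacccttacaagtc
SDHD, chr11:112086723-112086872, plus strand: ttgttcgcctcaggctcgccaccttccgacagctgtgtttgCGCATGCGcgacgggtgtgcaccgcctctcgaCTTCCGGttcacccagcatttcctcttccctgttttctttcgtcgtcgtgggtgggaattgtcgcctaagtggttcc
ATP5F1C, chr10:7788027-7788176, plus strand: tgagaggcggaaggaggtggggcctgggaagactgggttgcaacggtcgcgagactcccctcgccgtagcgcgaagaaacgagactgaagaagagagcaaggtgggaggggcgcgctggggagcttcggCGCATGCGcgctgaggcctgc

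COX5B held an NRF1 match 136 bases and an ETS match 37 bases before its start, with 3 SP matches between them. UQCRQ held an ETS match 54 bases before its start, ATP5MC1 overlapping CREB matches that begin 57 bases before it, and COX7C a YY1 match 8 bases before it. UQCR10, whose rise had the smallest adjusted p of all members, held none of the 8 motifs in these 150 bases. Genes that were not called also held matches: an NRF1 match began 109 bases before the start of SDHD and 21 bases before that of ATP5F1C, and UQCRH held an ETS match at 46 bases. Over all windows, 4 of the 9 tested members with the NRF1 letters and 12 of the 16 with the ETS letters rose, beside 28 of all 37 tested members with a window. A match is a stretch of letters and not a measured binding site.

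Complex II changed least. SDHA, the flavoprotein that oxidises succinate, had 110.01 CPM in the parental library, 251, 202, 149, 169.9 and 189 CPM in persister libraries 1 to 5 and 159, 149, 156, 146 and 149 CPM in withdrawn libraries 1 to 5. Its persister libraries were all above the parental library but not all above the withdrawn ones, and it rose 1.75-fold (log2 fold change 0.80 ± 0.22 (SE), edgeR adjusted p = 0.0185) and fell 1.26-fold after withdrawal (log2 fold change -0.34 ± 0.12 (SE), edgeR adjusted p = 0.0355). The fall was lost without persister library 1 (edgeR adjusted p = 0.0645), without persister library 2 (0.0571) and without any 1 of withdrawn libraries 2 to 5 (0.0528 to 0.0755). The rise was lost with the parental and persister libraries alone (0.116). About 5.37% of the reads on SDHA and its 3 annotated pseudogenes were assigned to the pseudogenes.

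SDHB, the iron-sulfur subunit, had 116 CPM in the parental library, 199, 126, 135, 129 and 141 CPM in persister libraries 1 to 5 and 148, 143, 142, 142 and 133 CPM in withdrawn libraries 1 to 5. Persister library 1 stood apart and the other 4 lay within or below the withdrawn range (log2 fold change 0.33 ± 0.21 (SE), edgeR adjusted p = 0.252). After withdrawal the log2 fold change was -0.04 (edgeR adjusted p = 0.784), and 0.09 without persister library 1.

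SDHC and SDHD are the membrane anchors of the complex, and neither was called. For SDHC the levels were 195 CPM in the parental library, 305, 183, 232, 254 and 295 CPM in persister libraries 1 to 5 and 238, 210.2, 225, 244 and 224 CPM in withdrawn libraries 1 to 5 (log2 fold change 0.38 ± 0.23 (SE), edgeR adjusted p = 0.219). Persister library 2 was below the parental library and below all withdrawn libraries, and without it SDHC was called in both directions (edgeR adjusted p = 0.0392 for the rise and 0.0407 for the fall). For SDHD they were 64.3 CPM in the parental library, 102, 76.1, 74.00, 84.8 and 92.3 CPM in persister libraries 1 to 5 and 76.2, 74.4, 72.2, 77.97 and 72.8 CPM in withdrawn libraries 1 to 5 (log2 fold change 0.42 ± 0.17 (SE), edgeR adjusted p = 0.0779). All 5 persister libraries were above the parental one, with overlap with the withdrawn group in libraries 2 and 3. SDHD was called in both directions without persister library 2 (0.0408 and 0.0424) or without library 3 (0.0484 and 0.0421).

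UQCR10, a small subunit of complex III, had the largest rise of the complex. It had 27.5 CPM in the parental library, 96.4, 67.3, 69.4, 60.6 and 84.6 CPM in persister libraries 1 to 5 and 31.5, 34.01, 33.9, 31.7 and 31.7 CPM in withdrawn libraries 1 to 5. No persister library came near either other group, and UQCR10 rose 2.76-fold (log2 fold change 1.46 ± 0.23 (SE), edgeR adjusted p = 0.000805) and fell 2.32-fold (log2 fold change -1.22 ± 0.12 (SE), edgeR adjusted p = 8.09e-06). UQCRQ, a ubiquinone-binding subunit, had 72.2 CPM in the parental library, 212, 133, 168, 143 and 204 CPM in persister libraries 1 to 5 and 90.7, 94.3, 89.6, 86.4 and 79.9 CPM in withdrawn libraries 1 to 5. It rose 2.38-fold (log2 fold change 1.25 ± 0.25 (SE), edgeR adjusted p = 0.00311), with no overlap between the persister libraries and the others. The third largest rise was that of UQCRB, another ubiquinone-binding subunit, with 122 CPM in the parental library, 355, 258, 259.6, 241 and 335 CPM in persister libraries 1 to 5 and 178, 185, 173, 174 and 175 CPM in withdrawn libraries 1 to 5. UQCRB rose 2.37-fold (log2 fold change 1.24 ± 0.21 (SE), edgeR adjusted p = 0.00140), fell 1.64-fold (log2 fold change -0.71 ± 0.11 (SE), edgeR adjusted p = 0.000261), and in withdrawn cells all 5 libraries still lay above the parental one, without a call (log2 fold change 0.53 ± 0.20 (SE), edgeR adjusted p = 0.238), which it had without persister libraries 1 and 5 in the fit (0.00898).

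The core proteins UQCRC1 and UQCRC2 rose 2.04-fold each, UQCR11 rose 2.10-fold and UQCRFS1, the Rieske iron-sulfur protein, 1.67-fold, and all 4 fell after withdrawal. The fall of UQCRC2 was lost without persister library 1 or 5 or any 1 withdrawn library (edgeR adjusted p = 0.0511 to 0.0659). For UQCRFS1, 18.3% of the reads on the gene and its pseudogenes were on the pseudogenes. CYC1, cytochrome c1, which hands electrons to cytochrome c, had 83.1 CPM in the parental library, 191, 155, 132, 132 and 141 CPM in persister libraries 1 to 5 and 116, 116, 116, 106 and 108 CPM in withdrawn libraries 1 to 5. It rose 1.81-fold (log2 fold change 0.85 ± 0.19 (SE), edgeR adjusted p = 0.00687) and fell 1.34-fold (log2 fold change -0.42 ± 0.11 (SE), edgeR adjusted p = 0.00573), with every persister library above the withdrawn range.

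UQCRH, the hinge protein that binds cytochrome c1, was not called. Its levels were 268 CPM in the parental library, 479.96, 223, 332, 327 and 389.6 CPM in persister libraries 1 to 5 and 300.4, 317, 295, 293 and 284 CPM in withdrawn libraries 1 to 5 (log2 fold change 0.39 ± 0.29 (SE), edgeR adjusted p = 0.324). Persister library 2 was the lowest of all 11 libraries while library 1 was the highest. Its intronless copy UQCRHL showed nearly the same order of persister libraries, with 20.6 CPM in the parental library, 38.2, 15.6, 25.03, 25.1 and 32.8 CPM in persister libraries 1 to 5 and 23.5, 24.7, 21.7, 23.2 and 21.3 CPM in withdrawn libraries 1 to 5 (log2 fold change 0.41 ± 0.34 (SE), edgeR adjusted p = 0.382). Reads of these near-identical copies can be assigned to either, so neither level is certain. Both were called lower after withdrawal when persister library 2 was left out (edgeR adjusted p = 0.0192 for UQCRH and 0.0201 for UQCRHL).

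CYCS, the soluble carrier between complexes III and IV, departed from the other members. It had 193 CPM in the parental library, 303, 270.3, 188, 231 and 215 CPM in persister libraries 1 to 5 and 158, 159, 139, 167 and 149 CPM in withdrawn libraries 1 to 5. Persister library 3 was below the parental library, the other 4 were above it, and all 5 withdrawn libraries were below it. The difference from the parental library was not called (log2 fold change 0.33 ± 0.22 (SE), edgeR adjusted p = 0.272), the fall after withdrawal was (log2 fold change -0.64 ± 0.12 (SE), edgeR adjusted p = 0.000985), and withdrawn cells did not pass against the parental library (log2 fold change -0.32 ± 0.21 (SE), edgeR adjusted p = 0.501). Fitted on those 2 groups alone, CYCS was the 1 member called lower in withdrawn than in parental cells (edgeR adjusted p = 0.00986). Annotated CYCS pseudogenes number 40 and held 3.48% of the reads of the group.

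The ratio of CYCS to CYC1 was 2.32 in the parental library, 1.58, 1.75, 1.43, 1.75 and 1.52 in persister libraries 1 to 5 and 1.37, 1.38, 1.196, 1.58 and 1.38 in withdrawn libraries 1 to 5. Both treated groups lay below the parental library, and their own ranges overlapped. Persister minus withdrawn was 0.22 on the log2 scale (two-sided exact permutation test, p = 0.0317, adjusted p = 0.0544 over 12 ratios, or 0.0556 over the 7 reported). Over 12 ratios the adjusted p was 0.0272 without withdrawn library 4.

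All 11 members of complex IV that are the usual isoforms of their subunits in most tissues, with COX7A2L counted among them, rose in persister cells and fell after withdrawal. With the parental and persister libraries alone, only the rise of COX7C among them kept its call, and the others kept their direction. COX5B, which binds zinc on the matrix side, had 51.6 CPM in the parental library, 182, 98.8, 107, 96.8 and 189 CPM in persister libraries 1 to 5 and 79.00, 74.5, 67.9, 76.5 and 69.7 CPM in withdrawn libraries 1 to 5. Libraries 1 and 5 were nearly level and far above the other 3, and COX5B rose 2.61-fold (log2 fold change 1.38 ± 0.38 (SE), edgeR adjusted p = 0.0168). COX6B1, on the outer face near the cytochrome c site, had 123 CPM in the parental library, 411, 224, 269, 236 and 359.6 CPM in persister libraries 1 to 5 and 159, 162, 158, 152 and 146 CPM in withdrawn libraries 1 to 5. It rose 2.43-fold (log2 fold change 1.28 ± 0.30 (SE), edgeR adjusted p = 0.00785) and fell 1.93-fold (log2 fold change -0.95 ± 0.16 (SE), edgeR adjusted p = 0.000379). COX6C, also with a 2.43-fold rise (log2 fold change 1.28 ± 0.27 (SE), edgeR adjusted p = 0.00445), had 68.4 CPM in the parental library, 225, 147, 138, 132 and 191 CPM in persister libraries 1 to 5 and 94.6, 97.1, 86.8, 94.1 and 87.8 CPM in withdrawn libraries 1 to 5. In all 3 genes the persister libraries were separate from both other groups.

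COX4I1, the subunit at which ATP is known to inhibit the enzyme, had 266 CPM in the parental library, 781, 494, 545, 483 and 683 CPM in persister libraries 1 to 5 and 354, 353, 329.9, 338 and 328 CPM in withdrawn libraries 1 to 5. The rise was 2.24-fold (log2 fold change 1.17 ± 0.25 (SE), edgeR adjusted p = 0.00485) and the fall 1.75-fold (log2 fold change -0.81 ± 0.13 (SE), edgeR adjusted p = 0.000328), without overlap. COX7B had 87.7 CPM in the parental library, 279, 121, 192, 172 and 265 CPM in persister libraries 1 to 5 and 100.1, 104, 97.9, 103 and 89.6 CPM in withdrawn libraries 1 to 5. Its persister libraries spread widely, with library 2 nearest to the withdrawn range and libraries 1 and 5 far above the rest (log2 fold change 1.23 ± 0.36 (SE), edgeR adjusted p = 0.0241). COX6A1 had 56.6 CPM in the parental library, 165, 102, 117, 98.5 and 144 CPM in persister libraries 1 to 5 and 68.5, 70.2, 68.6, 65.8 and 62.4 CPM in withdrawn libraries 1 to 5 (log2 fold change 1.14 ± 0.25 (SE), edgeR adjusted p = 0.00604). Its level is uncertain, since 34.5% of the reads on it and its pseudogenes were assigned to the pseudogenes, and adding them left the call in place.

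The smallest rises among the usual isoforms were those of COX7A2 and COX5A. COX7A2 had 97.1 CPM in the parental library, 188, 130.1, 146, 126 and 190.4 CPM in persister libraries 1 to 5 and 121, 126, 114, 115 and 115 CPM in withdrawn libraries 1 to 5, and it rose 1.61-fold (log2 fold change 0.69 ± 0.22 (SE), edgeR adjusted p = 0.0375). The rise was lost without withdrawn library 1, 3, 4 or 5 (edgeR adjusted p = 0.0506 to 0.0537), with upper-quartile scaling (0.0528) and with the parental and persister libraries alone (0.163), while the log2 fold change stayed at 0.68 to 0.69. COX5A, a nuclear subunit next to COX4I1, had 115 CPM in the parental library, 258, 172, 180.4, 169 and 209 CPM in persister libraries 1 to 5 and 146, 141, 141, 143 and 131 CPM in withdrawn libraries 1 to 5, and it rose 1.71-fold (log2 fold change 0.78 ± 0.21 (SE), edgeR adjusted p = 0.0172). COX8A had 60.7 CPM in the parental library, 139.6, 87.3, 98.4, 88.9 and 119 CPM in persister libraries 1 to 5 and 82.1, 89.97, 79.6, 72.7 and 73.3 CPM in withdrawn libraries 1 to 5 and rose 1.76-fold (log2 fold change 0.81 ± 0.24 (SE), edgeR adjusted p = 0.0252), and its fall after withdrawal was lost without persister libraries 1 and 5 (0.0557). COX7C, not detailed here by library, rose 2.40-fold (log2 fold change 1.26 ± 0.22 (SE), edgeR adjusted p = 0.00162).

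COX7A2L, known for joining complexes III and IV into supercomplexes, had 82.9 CPM in the parental library, 182, 132, 125, 119.6 and 158 CPM in persister libraries 1 to 5 and 106, 110.4, 106, 108 and 100.05 CPM in withdrawn libraries 1 to 5. It rose 1.73-fold (log2 fold change 0.79 ± 0.21 (SE), edgeR adjusted p = 0.0144) and fell 1.35-fold (log2 fold change -0.43 ± 0.11 (SE), edgeR adjusted p = 0.00715), and its ratio to COX7A2 did not differ detectably between persister and withdrawn libraries (log2 difference 0.04, two-sided exact permutation test, p = 0.532, adjusted p = 0.580).

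The isoform genes known from other tissues stayed low. COX4I2, the lung isoform, and COX6A2, the heart and muscle isoform, had 0 counts in every library, which allows at most 0.00405 CPM over the 11 libraries for 3 counts, counting error only. COX8C, a testis isoform, had 2 counts in all. COX6B2, of testis, and COX7A1, of heart and muscle, were tested but stayed at or below 0.248 CPM in all libraries. COX6B2 had 0.0306 CPM in the parental library, 0.0461, 0.129, 0.0152, 0.0608 and 0.0956 CPM in persister libraries 1 to 5 and 0.0889, 0.228, 0.119, 0.0570 and 0.248 CPM in withdrawn libraries 1 to 5. COX7A1 had 0.184 CPM in the parental library, 0.154, 0.111, 0.107, 0.0608 and 0.0410 CPM in persister libraries 1 to 5 and 0.0296, 0.0876, 0.163, 0.0712 and 0.0688 CPM in withdrawn libraries 1 to 5. At these counts neither passed in any comparison.

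COX7B2, the testis isoform of COX7B, was the exception among them, with 5.84 CPM in the parental library, 16.7, 15.3, 20.5, 10.3 and 7.33 CPM in persister libraries 1 to 5 and 5.81, 10.5, 7.86, 6.20 and 7.46 CPM in withdrawn libraries 1 to 5. Persister library 3 was the highest and library 5 the lowest of its group, an order unlike that of the usual isoforms. The difference from the parental library was not called (log2 fold change 1.26 ± 0.50 (SE), edgeR adjusted p = 0.0758), and it passed without persister library 5 (edgeR adjusted p = 0.0177) and with DESeq2 on all libraries (DESeq2 adjusted p = 0.0287). The fall was called (log2 fold change -0.89 ± 0.26 (SE), edgeR adjusted p = 0.0143). Its ratio to COX7B ran from 0.028 to 0.127 in persister libraries and from 0.0590 to 0.102 in withdrawn ones, so the ranges overlapped (log2 difference -0.17, exact permutation p = 0.714, adjusted p = 0.714), and the sign turned without persister library 5 (0.14).

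**Figure D3:**
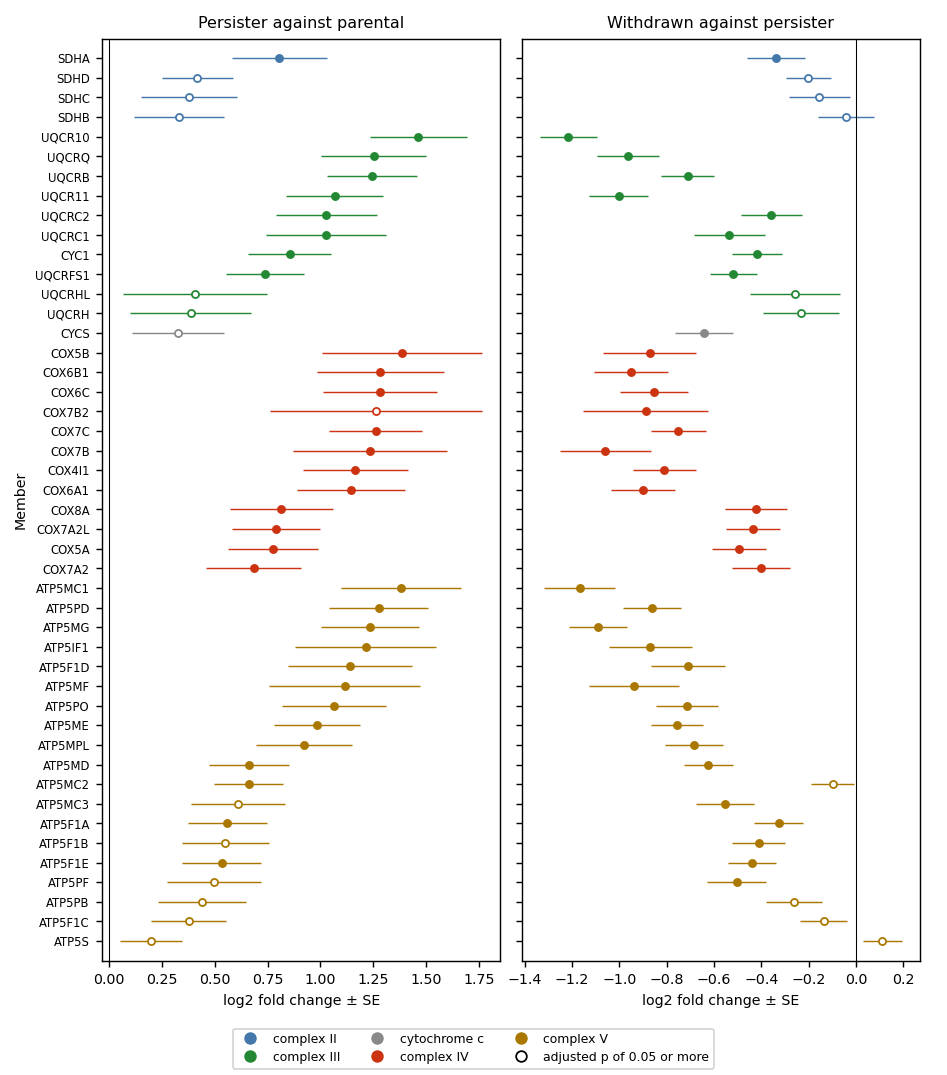
Log2 fold change ± SE of 46 tested members for persister against parental cells (left) and withdrawn against persister cells (right), coloured by complex, with open circles where the adjusted p was 0.05 or more. COX6B2 and COX7A1, near 0 CPM, are left out of the plot. On the left all points lie above 0, and on the right ATP5S alone lies above 0.

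In ATP synthase 7 of the 8 genes of the membrane part rose, with 3 of the 5 of the catalytic head and 2 of the 4 of the peripheral stalk, and differences between these parts were not tested. In the head ATP5F1A (1.48-fold), ATP5F1D (2.20-fold) and ATP5F1E (1.45-fold) rose, and ATP5F1B and ATP5F1C did not pass. The rises of ATP5F1A and ATP5F1E were lost without any 1 withdrawn library (edgeR adjusted p = 0.0542 to 0.0671) and without the low-count filter (0.0536 and 0.0628). Both were also lost with the parental and persister libraries alone (log2 fold change 0.56 and 0.53). That of ATP5F1E was lost too without persister library 1 (edgeR adjusted p = 0.0547) or 3 (0.0605) and with RLE (0.0534) or upper-quartile scaling (0.0636). ATP5F1B, the catalytic beta subunit, had 903 CPM in the parental library, 1698, 1278, 1101, 1210.2 and 1329 CPM in persister libraries 1 to 5 and 1041, 947, 1004, 1031 and 951 CPM in withdrawn libraries 1 to 5. All persister libraries lay above both other groups, with no call against the parental library (log2 fold change 0.55 ± 0.20 (SE), edgeR adjusted p = 0.0583) and a called fall after withdrawal (log2 fold change -0.41 ± 0.11 (SE), edgeR adjusted p = 0.00919). The rise passed with DESeq2 (DESeq2 adjusted p = 0.0378), limma-voom (0.0442) or a filter of 10 counts in 5 libraries (0.0496), and without persister library 1 (0.0341) or 3 (0.0367). It also passed without both persister libraries 1 and 5 (edgeR adjusted p = 0.0153). In the other settings, the parental and persister libraries alone among them, it did not pass. ATP5F1C, the central shaft, had 146 CPM in the parental library, 236, 166, 176, 175 and 194 CPM in persister libraries 1 to 5 and 178, 174, 169.7, 178 and 162 CPM in withdrawn libraries 1 to 5 and was called in neither comparison (log2 fold change 0.38 ± 0.18 (SE), edgeR adjusted p = 0.122).

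ATP5PD and ATP5PO of the peripheral stalk rose 2.42-fold and 2.09-fold, and ATP5PB and ATP5PF did not pass. ATP5PD had 72.97 CPM in the parental library, 223, 146, 159, 149 and 206 CPM in persister libraries 1 to 5 and 97.2, 101, 101, 95.04 and 91.7 CPM in withdrawn libraries 1 to 5. Its libraries did not overlap between persister and the other groups (log2 fold change 1.27 ± 0.23 (SE), edgeR adjusted p = 0.00205). Of the small membrane subunits, ATP5ME (1.98-fold), ATP5MF (2.17-fold), ATP5MD (1.58-fold) and ATP5MPL (1.90-fold) rose. ATP5MG, which takes part in the dimer of the enzyme, had 39.4 CPM in the parental library, 119, 76.4, 90.9, 80.3 and 96.5 CPM in persister libraries 1 to 5 and 45.4, 49.3, 42.01, 42.1 and 38.6 CPM in withdrawn libraries 1 to 5. It rose 2.35-fold (log2 fold change 1.23 ± 0.23 (SE), edgeR adjusted p = 0.00228) and fell 2.13-fold (log2 fold change -1.09 ± 0.12 (SE), edgeR adjusted p = 2.10e-05). ATP5ME shares 61.6% of its exon bases with MYL5 on the opposite strand, ATP5F1E 23.2% with TUBB1, UQCRQ 20.8% with GDF9 and ATP5PF 20.2% with GABPA. Whether the counting used strand is not stated. On the same strand COX8A shares 34.5% with AP000721.1, COX6B2 30.9% with AC020922.1 and ATP5PO 19.6% with AP000311.1. Strand cannot separate the reads of these same-strand overlaps.

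ATP5MC1, ATP5MC2 and ATP5MC3 encode the same mature subunit c, the proton-carrying ring, behind different import sequences, and their levels moved unequally. ATP5MC1 had 52.8 CPM in the parental library, 198, 116, 129, 109.97 and 134 CPM in persister libraries 1 to 5 and 67.7, 56.8, 61.8, 65.2 and 54.3 CPM in withdrawn libraries 1 to 5. It rose 2.602-fold (log2 fold change 1.38 ± 0.29 (SE), edgeR adjusted p = 0.00402) and fell 2.25-fold (log2 fold change -1.17 ± 0.15 (SE), edgeR adjusted p = 5.63e-05), and the persister libraries were all above the rest. ATP5MC2 had 114 CPM in the parental library, 204, 199.97, 177, 151 and 170.4 CPM in persister libraries 1 to 5 and 168, 162, 178, 165 and 171 CPM in withdrawn libraries 1 to 5. It rose 1.58-fold (log2 fold change 0.66 ± 0.16 (SE), edgeR adjusted p = 0.0104). The withdrawn libraries lay inside the persister range (log2 fold change -0.10 ± 0.09 (SE), edgeR adjusted p = 0.378) and all above the parental library, with neither difference called (log2 fold change 0.56 ± 0.16 (SE), edgeR adjusted p = 0.137). Without persister libraries 1 and 5 in the fit, withdrawn ATP5MC2 was 1 of 10 members called higher than the parental library (edgeR adjusted p = 0.0296). ATP5MC3 had 136 CPM in the parental library, 277, 184, 176, 181 and 219 CPM in persister libraries 1 to 5 and 147, 143, 139, 144 and 133 CPM in withdrawn libraries 1 to 5. The difference of persister from parental cells missed the threshold (log2 fold change 0.61 ± 0.22 (SE), edgeR adjusted p = 0.0548) and was called without any 1 of persister libraries 1 to 4 (edgeR adjusted p = 0.0252 to 0.0428), with a filter of 10 counts in 5 libraries (0.0481) and with DESeq2 (0.0413), and the fall was called (log2 fold change -0.56 ± 0.12 (SE), edgeR adjusted p = 0.00252).

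**Figure D4:**
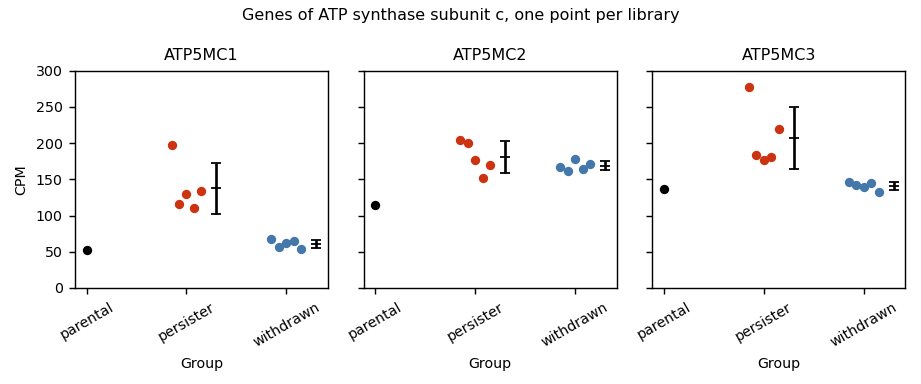
CPM of the 3 genes of ATP synthase subunit c in each library (points), with mean ± SD of 5 libraries beside the persister and withdrawn points. ATP5MC1 and ATP5MC3 return to near the parental value after withdrawal, and the withdrawn libraries of ATP5MC2, at 162 to 178 CPM, lie within the persister range of 151 to 204 CPM.

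The ratios within a library, which need no length correction for a comparison between libraries, were tested between persister and withdrawn cells. ATP5MC1 to ATP5MC2 was 0.463 in the parental library, 0.969, 0.582, 0.728, 0.727 and 0.789 in persister libraries 1 to 5 and 0.405, 0.351, 0.347, 0.396 and 0.319 in withdrawn libraries 1 to 5. The ratio was 2.07-fold higher in persister than in withdrawn libraries, higher in 5 of 5, and the parental library lay between the groups. ATP5MC1 to ATP5MC3 was 1.52-fold higher in persister than in withdrawn libraries. Its parental value of 0.389 lay below the persister range of 0.608 to 0.733 and the withdrawn range of 0.399 to 0.462. ATP5MC2 to ATP5MC3 was 1.36-fold lower in persister than in withdrawn libraries. Here the parental value of 0.840 lay within the persister range of 0.736 to 1.09 and below the withdrawn range of 1.14 to 1.29. Each of these 3 differences had an exact two-sided permutation p of 0.00794, the smallest that 5 against 5 libraries can give, and an adjusted p of 0.0159 over 12 ratios, or 0.0185 over the 7 ratios reported. Paired by culture number, 5 pairs cannot give a p below 0.0625 by a sign-flip test, so the pairing cannot pass the threshold (adjusted p = 0.107).

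ATP5IF1, the inhibitor that blocks ATP hydrolysis by the enzyme when the proton gradient falls, had 45.4 CPM in the parental library, 128, 60.7, 116, 91.3 and 131 CPM in persister libraries 1 to 5 and 59.1, 57.5, 59.2, 58.4 and 54.3 CPM in withdrawn libraries 1 to 5. Persister library 2 was close to the withdrawn level and the other 4 were well above it, and ATP5IF1 rose 2.32-fold (log2 fold change 1.21 ± 0.33 (SE), edgeR adjusted p = 0.0172). Its ratio to ATP5F1B was 0.0504 in the parental library, 0.0753, 0.0476, 0.106, 0.0755 and 0.0987 in persister libraries 1 to 5 and 0.0568 to 0.0608 in withdrawn libraries. The difference of 0.42 on the log2 scale did not pass (exact permutation p = 0.0635, adjusted p = 0.0952 over 12 ratios, or 0.0889 over the 7 reported). Over 12 ratios it passed without persister library 2, at 0.59 (adjusted p = 0.0272).

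ATP5S carries an ATP synthase name but is an assembly-related gene, now called DMAC2L. It had 16.8 CPM in the parental library, 21.2, 19.2, 17.1, 18.9 and 20.3 CPM in persister libraries 1 to 5 and 19.5, 21.1, 20.5, 21.8 and 21.4 CPM in withdrawn libraries 1 to 5. It was called in no comparison, and was the member of complex V with the smallest persister change (log2 fold change 0.20 ± 0.15 (SE), edgeR adjusted p = 0.314). The remaining members were too low to test: the readthrough gene ATP5MF-PTCD1 had 10 counts and ATP5MGL 14 counts over all libraries.

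Persister libraries differed from each other more than withdrawn ones did. The median over the members of the SD of log2 CPM was 0.28 among persister and 0.07 among withdrawn libraries, beside 0.41 and 0.17 over all genes tested. This SD depends on the count level, for which members and all genes were not matched. The values therefore do not show whether members vary less than other genes. Persister library 1 was the highest of its group in 42 of 48 members and library 5 in 4, while the lowest was library 4 in 21, library 2 in 14 and library 3 in 11. The median difference of the members from the parental library was 1.203, 0.78, 0.67, 0.61 and 0.92 on the log2 scale in persister libraries 1 to 5. It was 0.19 to 0.32 in withdrawn libraries.

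Persister libraries 1 and 5 also stood apart in other measures, whose part in the member levels was not tested. The mean log2 CPM of 20 S phase genes was 4.98 and 3.91 in them, 5.82 to 6.24 in the other persister libraries, 6.52 in the parental library and 6.10 to 6.22 in the withdrawn ones. Counts from the mitochondrial genome made 8.88% and 9.28% of them, against 4.51% to 6.72%, 2.96% and 3.15% to 3.70%. In the 3 persister libraries without them, the median member difference was 0.61 to 0.78. In a fit without them, 36 members rose in persister cells, beside 20.1% of all genes, and 34 fell after withdrawal, beside 28.7%.

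**Figure D5:**
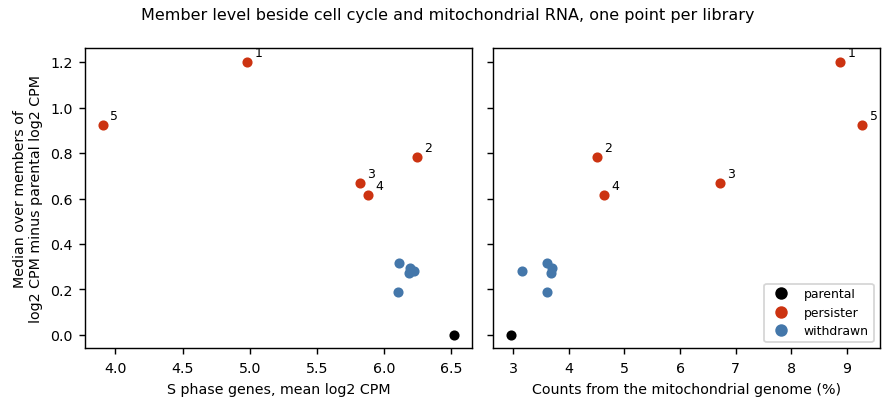
Median over the tested members of log2 CPM minus parental log2 CPM (vertical axis) beside the mean log2 CPM of 20 S phase genes (left) and the share of counts from the mitochondrial genome in percent (right), one point per library, with persister replicate numbers. Persister libraries 1 and 5 have the lowest S phase means, 4.98 and 3.91, and the highest mitochondrial shares, 8.88% and 9.28%.

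Of 13 protein genes of the mitochondrial genome 7 rose in persister cells and 0 fell, so the nuclear and mitochondrial parts of each complex can be set side by side, as values without a test. For complex IV the mean log2 CPM of nuclear members, the near-0 members included, minus that of MT-CO1, MT-CO2 and MT-CO3 moved by -0.55 ± 0.26 (SD, n = 5) from the parental library in persister cells and by -0.06 ± 0.11 in withdrawn cells. For complex III, set against MT-CYB, the values were -0.45 ± 0.24 and -0.01 ± 0.17. For complex V, set against MT-ATP6 and MT-ATP8, they were 0.11 ± 0.33 and 0.18 ± 0.10. In complexes III and IV the value was below 0 in every persister library, and in complex V its sign differed between persister libraries. The near-0 members of complex IV, COX6B2 and COX7A1, weigh as much in its mean as each other member. A value without them was not computed, so the size of the complex IV shift and its contrast with complex V are uncertain.

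Many members are small proteins, and short coding genes as a class moved the same way. Across the 48 tested members the fold change of persister cells had a Spearman rho of -0.30 with coding length, the longest annotated coding sequence, beside -0.19 across 15372 tested protein-coding genes. For withdrawn against persister cells rho was 0.45 over the members and 0.16 over those genes. For withdrawn against parental cells it was 0.28 and -0.11, opposite in sign. These points share libraries and genes are not independent. The median coding length of the tested members was 351 bases. Of the 491 protein-coding genes at or under it, 33.4% rose in persister cells and 5.70% fell (median log2 fold change 0.59). Of the 14881 longer genes 19.4% rose and 18.6% fell (0.05). The members were not taken out of these classes, and each class holds 24 of them. The part of gene length in the member changes was not tested.

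Other genes of the same system were counted from lists. Of 38 complex I subunit genes tested, 23 rose and 1 fell in persister cells (median log2 fold change 0.78). Of 42 assembly factors of complexes II to V, 15 rose and 4 fell (median 0.49). COX15, which makes heme A for complex IV, rose from 61.0 CPM in the parental library to 109 ± 5.41 CPM (SD, n = 5), and SDHAF2, which adds the flavin to SDHA, from 7.80 to 14.9 ± 0.85 CPM. COA1, a complex IV assembly factor, fell from 90.5 to 51.7 ± 3.12 CPM and was 101 ± 5.62 CPM in withdrawn cells. The edgeR adjusted p of persister against parental cells was 0.000501 for COX15, 0.00142 for SDHAF2 and 0.000503 for COA1.

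Of 17 regulators of mitochondrial genes, 2 rose and 7 fell (median -0.54). PPARGC1A, the coactivator PGC-1alpha, was 0.275 CPM in the parental library, 62.0, 19.4, 18.2, 31.0 and 44.8 CPM in persister libraries 1 to 5 and 0.841 to 2.93 CPM in withdrawn libraries (log2 fold change 6.98, edgeR adjusted p = 0.00114). It was highest in persister libraries 1 and 5. GABPA, an ETS factor, fell from 58.4 to 29.7 ± 4.21 CPM (SD, n = 5), and TFB1M, which modifies mitochondrial ribosomal RNA, from 35.5 to 12.9 ± 2.70 CPM (edgeR adjusted p = 0.000858 and 0.000546).

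Withdrawn cells stayed close to the parental library without reaching a call. All 5 withdrawn libraries lay above the parental library for 39 of the 48 members, against 33.0% of all genes tested, and below it for 2, CYCS and COX7A1. The median log2 fold change was 0.26 over the members and 0.05 over all genes tested. At an unadjusted edgeR p under 0.05, 5 of the 48 members were higher and 0 lower, beside 9.17% and 6.07% of all genes tested. DESeq2 called 0 members in each direction, beside 709 genes higher and 363 lower. Over all genes edgeR called 74 higher and 28 lower, and with upper-quartile scaling 57 and 38. Fitted on the parental and withdrawn libraries alone, 28 members were higher and 1 lower, beside 3483 and 3110 of 21590 genes, and without persister libraries 1 and 5 the 3-group fit gave 10 higher (UQCRB, UQCRC1, UQCRC2, CYC1, COX5B, COX6C, COX7C, COX7A2L, ATP5MC2 and ATP5PD), beside 5.38% of all genes. Both comparisons with the single parental library thus depend on which libraries lend it their spread.

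Total counts were 56513920 to 82984566 per library. Of the melanocyte lineage markers SOX10 was 635 CPM in the parental library, 29.2 to 86.7 CPM in persister and 792 to 838 CPM in withdrawn libraries. S100B went the same way, with 71.7 CPM, 6.88 to 24.5 CPM and 89.2 to 99.1 CPM in the same order. DCT went the other way, with 2.94, 229 to 740.4 and 16.45 to 64.1 CPM, as did MLANA, with 1.15, 11.0 to 23.5 and 0.445 to 0.826 CPM. PMEL was 0.413, 0.822 to 2.77 and 0.875 to 1.62 CPM, MITF was at least 78.4 CPM everywhere, and TYR at most 0.0851 CPM. The 6 fibroblast markers summed to 7.86 CPM in the parental library, 39.5 to 312 CPM in persister and 8.28 to 11.5 CPM in withdrawn libraries, and LUM made most of the sum in each persister library, at 32.7 to 292 CPM. The part of this in the member levels was not tested. Summed leukocyte markers were at most 6.85 CPM, keratinocyte markers at most 5.39 CPM and endothelial markers at most 26.4 CPM.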

How the data were processed

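Poly(A) RNA of the 11 libraries was made into stranded libraries, per the labels' protocols. Per the submitters' processing notes, reads were processed with bcl2fastq, HISAT2 and HTSeq on hg38. Tool versions, the strand setting and the annotation are not stated in the labels. The deposited values are whole-number read counts per gene, not normalized and not pooled. No rows for unassigned reads entered the library sizes, and 0 columns were left unused. The members and lists were chosen with earlier results of these data known.

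All 58721 gene IDs matched GENCODE 29, which gave symbols and gene types. Genes were tested with edgeR 4.0.16 (R 4.3.3): libraries were scaled by TMM after filterByExpr (minimum count 10, minimum total 15), a robust quasi-likelihood model with 3 groups was fitted to all 11, and p-values had Benjamini-Hochberg adjustment over 23693 genes at 0.05, with 8 residual degrees of freedom from the persister and withdrawn libraries. CPM used the scaled library sizes. The 12 ratios of gene pairs were log2 of CPM plus 0.1, compared by exact two-sided permutation (scipy 1.17.1). For 5 of them a partner was under 1 CPM in all libraries, and these were left out after the values were seen. The edgeR step was tested on simulated counts with the same dispersion in every library, unlike the unequal spread of persister and withdrawn libraries here. The permutation step was checked on made-up values with a known answer.

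Values by library are given for the SDH genes, CYC1, CYCS, the isoform genes of complex IV with their counterparts, COX7A2L, ATP5IF1, the subunit c genes, and the 3 largest and 2 smallest fold changes of complexes III, IV and V. ATP5F1B was added after its values were seen, as partner of ATP5IF1. From other lists at most 3 genes with the smallest adjusted p are named. Exons of 26 members overlap those of other genes, for 19 on the opposite strand, and 29 members have annotated pseudogenes, 145 in all, with which reads may be shared. Same-numbered persister and withdrawn libraries are paired by their names, which derive 1 from the other. Their deviations from the group means correlated at 0.05 to 0.09, each best with its own number in 5 of 5. Alternatives were other scaling factors (RLE, upper quartile, library sizes without the mitochondrial genome), filters, DESeq2 1.42.0, limma-voom (limma 3.58.1), fits of the 2 groups alone, a replicate block, another pseudocount and leaving out each replicate. Added after the data were seen were leaving out persister libraries 1 and 5 together and adding pseudogene counts. Promoter windows are from RefSeq (GRCh38.p14).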

Additional observations from a re-analysis of the deposited data

Results flagged for a closer look

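Among 64 groups of 5 libraries checked, 2 had 1 library far from the others, and chance flags about 1 in 20 such groups. For SDHB, persister library 1 was high at 198.64 CPM, with a gap to the nearest library of 0.79 of the group's range. For ATP5MC1, persister library 1 was high at 197.64 CPM, with a gap of 0.72 of the range, where the limit for 5 libraries is 0.71.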

How the results depend on the processing

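Members called by edgeR in persister against parental cells were 33 higher and 0 lower, and leaving out 1 replicate gave 30 to 36 higher and 0 lower. In withdrawn against persister cells 37 were lower and 0 higher, with 35 to 41 lower and 0 higher without 1 replicate. Under the replicate block 37 were again lower, which moved no count of calls by over 1.5 times. Withdrawn against parental cells gave 0 in both directions without any 1 replicate. With only the 2 groups compared, persister cells had 7 members higher than the parental library, and withdrawn cells 28 higher and 1 lower. Here the spread comes from 5 libraries of 1 group. Over all genes these fits called 1354 higher and 1215 lower in persister cells (3819 and 3572 with 3 groups), and 3483 and 3110 in withdrawn cells (74 and 28 with 3 groups). For withdrawn against parental cells, DESeq2 called 709 and 363 genes, and leaving out 1 replicate gave 19 to 374 higher and 4 to 184 lower. That comparison had 1241 and 845 without persister libraries 1 and 5, 10 members among the higher, 57 and 52 with limma-voom, and 106 and 49 with a filter of 10 counts in 5 libraries. Adjusted p-values of ratios here are over 12 ratios, 5 of them with a partner under 1 CPM and not reported. The ratio of CYCS to CYC1 passed with a pseudocount of 1 CPM (exact permutation test, adjusted p = 0.0423). Its log2 difference was 0.22 with either pseudocount, and an adjustment over the 7 reported ratios was not made in that setting. It also passed without withdrawn replicate 4 (range without 1 replicate 0.17 to 0.27). The ratio of ATP5IF1 to ATP5F1B passed without persister replicate 2 (range 0.31 to 0.59). That of COX7B2 to COX7B ranged from -0.40 to 0.14 and turned without persister replicate 5. Under the replicate block the log2 differences were 1.05 for ATP5MC1 to ATP5MC2, 0.61 for ATP5MC1 to ATP5MC3 and -0.44 for ATP5MC2 to ATP5MC3, past no threshold because 5 pairs are too few. Without 1 replicate these ran from 0.96 to 1.14, 0.57 to 0.63 and -0.52 to -0.38, and that of COX7A2L to COX7A2 from 0.00394 to 0.07. Of the values of the 48 tested members over all settings, 2714 kept direction and side of the threshold, 64 newly passed, 64 no longer passed and 9 turned. Those that turned were all uncalled. They were the withdrawn-against-persister values of SDHB (-0.0915 to 0.0935 without 1 replicate, turning without persister replicate 1, and 0.12 without 1 and 5), COX7A1 (-0.54 to 0.0953, turning without persister replicate 1 or withdrawn replicate 1), and SDHC (0.0277), UQCRH (0.0153) and UQCRHL (0.0580) without persister replicates 1 and 5, and the withdrawn-against-parental value of ATP5PF (-0.0484 to 0.0195 without 1 replicate, turning without withdrawn replicate 3 or 5). The cause was not tested. Depth limits only COX4I2, COX6A2, COX8C, COX6B2, COX7A1, ATP5MGL and ATP5MF-PTCD1.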

Other observations

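Of 14 genes of the citric acid cycle, 3 rose and 1 fell in persister cells (edgeR's quasi-likelihood test, 16.1% of all genes rose and 15.1% fell). SUCLG1, the alpha subunit of succinyl-CoA ligase, went from 58.4 CPM in the parental library to 117 ± 23.5 CPM (SD, n = 5) in persister and 89.2 ± 3.66 CPM in withdrawn cells. SUCLG2, the GTP-specific beta subunit of the same enzyme, fell from 118 to 74.2 ± 7.03 CPM in persister cells and was 212 ± 11.6 CPM in withdrawn cells, 1.79-fold above the parental library (edgeR adjusted p = 0.0411). It was the 1 gene of this list called in that comparison.

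Of 9 partners of cytochrome c in the apoptosome pathway, BAX and BAK1, which open the outer mitochondrial membrane, rose and APAF1, which binds released cytochrome c, fell. BAX went from 52.7 CPM in the parental library to 129.98 ± 28.7 CPM (SD, n = 5) in persister and 51.8 ± 1.94 CPM in withdrawn cells. APAF1 went from 38.4 to 18.9 ± 6.17 and 35.0 ± 2.31 CPM. Of 18 genes of membrane transport and inner membrane structure, 0 rose and 1 fell in persister cells. Of 78 mitochondrial ribosomal protein genes 26 rose and 3 fell, and of 80 cytosolic ribosomal protein genes 12 rose and 4 fell. In the S phase list 3 of 20 genes fell, and in the mitosis list 0 of 15 were called.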
